A study of Saccharomyces cerevisiae with 73 samples.

Results

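The 2 cultures described here were shifted from a complete dextrose medium to ethanol media without amino acids, and the order in which their transcripts moved was followed from 15 to 240 min. They were chosen by their labels, SEtOH and SEtOH+ino, and account for 13 of the 73 two-colour arrays of a study of the budding yeast Saccharomyces cerevisiae in 13 media. The cells were strain KCN118, an S288C derivative of mating type alpha that carries an ade2 mutation, grown at 28 °C. Before the shift they were in logarithmic growth in synthetic complete medium with 2% dextrose and 75 µM inositol, and were then collected on a filter, washed and resuspended in synthetic medium with 2% ethanol and no amino acids. SEtOH held no inositol and SEtOH+ino held it. Both media were followed in 1 culture each at 15, 30, 60, 120 and 240 min. On each array RNA of the shifted cells was labelled with Cy5 and RNA of cells frozen before the shift (t = 0) with Cy3. SEtOH had 5 arrays and SEtOH+ino 8, because its 15, 30 and 240 min samples were each hybridised on a second array.

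Yeast ferments dextrose to ethanol and represses the genes for respiration, gluconeogenesis and fatty acid breakdown while dextrose is present. When ethanol is the carbon source it is oxidised through acetaldehyde and acetate to acetyl-CoA, which feeds the citric acid cycle and respiration. The glyoxylate cycle and gluconeogenesis make the sugar phosphates that the cell can no longer take from dextrose. Snf1 kinase and the activators Hap4, Adr1, Cat8 and Sip4 switch on these genes, the repressors Mig1 and Mig2 hold them off in dextrose, and Msn2 and Msn4 drive a general stress programme when sugar is withdrawn.

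A value is the log2 ratio of shifted over t = 0 cells, computed from deposited values read as log10 ratios, so that 1 is a doubling. Repeat arrays of a time point were averaged, which gave 10 values per gene, 1 for each culture and time. The deposited ratios stop at 100-fold, a log2 value of 6.64, so a gene at that limit rose at least 100-fold. The 2 cultures served as the replicates at each time (n = 2), although they differ in inositol, and p-values measure only the spread between them. No dyes were swapped, so where a gene takes up the dyes unequally its ratio to t = 0 is offset, while steps between times and differences between media are free of that offset. Whether the cultures shared 1 sample of t = 0 cells is not stated. Because an array gives ratios relative to the other transcripts on it, a loss of total mRNA from all genes together would not be seen. The arrays held a value for 6206 to 6252 probes each. Repeat arrays of SEtOH+ino correlated across genes at Pearson r = 0.851, 0.931 and 0.989 at 15, 30 and 240 min, and the 2 cultures at 0.922, 0.961 and 0.987. The SD across genes of the difference was 0.205, 0.245 and 0.207 log2 units between repeat arrays and 0.154, 0.190 and 0.228 between cultures. For the cultures the first SEtOH+ino array of each time was set against SEtOH. At 15 and 30 min the cultures were thus closer to each other than repeat arrays of 1 sample, and at 240 min about as close.

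The response widened with time. A test of the mean of the cultures against t = 0 over 5465 genes (limma, Benjamini-Hochberg adjusted p under 0.05) called 1987 genes (36.4%) at 15 min, 3608 (66.0%) at 30 min, 4398 (80.5%) at 60 min, 4676 (85.6%) at 120 min and 4738 (86.7%) at 240 min. Called genes with a mean change of at least 2-fold were fewer. At 15 min 86 were higher (1.57% of those tested) and 13 lower (0.238%), 1.81% in all. At 30 min 295 were higher (5.4%) and 88 lower (1.61%), 7.01% in all, and at 60 min 551 (10.1%) and 345 (6.31%), 16.4% in all. At 120 min 824 were higher (15.1%) and 942 lower (17.2%), 32.3% in all, and at 240 min 997 (18.2%) and 1117 (20.4%), 38.7% in all. Rising genes thus led among the large changes up to 60 min and falling genes outnumbered them from 120 min. In single cultures the 2-fold counts were 96 higher and 20 lower in SEtOH against 77 and 14 in SEtOH+ino at 15 min, and 1021 and 1186 against 973 and 1070 at 240 min.

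Movement between neighbouring times was tested in the same model, in which neighbouring steps share the arrays of the time between them. From 15 to 30 min 906 genes were called (16.6%), 484 up (8.86%) and 422 down (7.72%). From 30 to 60 min it was 1592 (29.1%), 670 up (12.3%) and 922 down (16.9%). From 60 to 120 min it was 1887 (34.5%), 772 up (14.1%) and 1115 down (20.4%), and from 120 to 240 min 1922 (35.2%), 909 up (16.6%) and 1013 down (18.5%). Called steps of at least 2-fold were nearly all upward before 120 min, with 112 up and 0 down, 69 and 0, 79 and 3, and then 102 and 35 genes in the 4 steps (2.05%, 1.26%, 1.5% and 2.51% of those tested). From 15 to 240 min 4222 genes were called (77.3%), 1926 upward and 2296 downward. The step counts rest on the close match of these 2 cultures: with the spread taken from 8 cultures in 4 kinds of medium the steps kept 77, 34, 96 and 461 calls over 5325 genes, of which 77, 34, 94 and 460 were among the genes called above. Of 116 results on single genes given below and refitted with 1 culture left out, 41 lost their call without SEtOH and 35 without SEtOH+ino, mostly steps between times. With each culture as a block the first step had 1637 calls, and with every array set to a median of 0 the split was 649 up of 819 calls from 15 to 30 min, 901 up of 1440 from 30 to 60 min and 2167 higher of 4230 against t = 0 at 60 min.

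To order the genes, the time at which the log2 ratio first reached 50% of its largest absolute value, here called the half-time, was read by linear interpolation in each culture. This was done for the 2139 genes that reached at least 1 log2 unit with the same sign in both cultures, and it is a description with no test. The 1000 genes that went up had a median half-time of 47.05 min (25th to 75th percentile 27.59 to 80.41 min) and the 1139 that went down 64.41 min (42.62 to 88.55 min). Of the upward genes 284 (28.4%) had a half-time under 30 min and 100 (10.0%) over 120 min. Half-times from the 2 cultures differed by a median of 6.66 min, with a Spearman correlation across genes of 0.926, and 1724 genes (80.6%) had their largest value at the same time in both. Most were still at their largest mean at the last sample, 712 of those going up and 964 of those going down.

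Gene groups followed one another in nearly the same order in both cultures, here for lists with at least 5 members moving the same way. Among upward members, the median half-time was 20.1 min for heat shock chaperones and disaggregases (23 genes) and 24.0 min for glycolysis and fermentation genes (6). It was 24.4 min for trehalose and glycogen enzymes (15), 27.5 min for general stress genes (24) and 30.7 min for hexose transporters (12). It was 43.7 min for autophagy genes (17), 49.5 min for regulators of non-fermentable carbon genes (6), 70.5 min for the respiratory chain (29) and 84.8 min for the citric acid cycle (12). Gluconeogenesis with the glyoxylate cycle (11, 129 min) and peroxisomal beta-oxidation (16, 133 min) were the last of the 15 upward lists of that size. Among downward members the median was 34.6 min for G1 cyclins and cell cycle regulators (9) and 48.3 min for branched-chain amino acid synthesis (7). It was 55.1 min for RNA polymerase I and III (24), 76.1 min for ribosome biogenesis (38) and 103 min for cytosolic ribosomal proteins (128). The rank order of the lists had a Spearman correlation between the cultures of 0.946 over 15 upward lists and 0.952 over 8 downward lists. In at least 1 culture, 6 of 26 chaperone genes and 4 of 25 general stress genes came to or next to the 100-fold limit. That may make their half-times too early. The gluconeogenesis and beta-oxidation lists had 0 such genes. Some smaller groups fell outside these ranges, with 174 min for 4 upward purine synthesis genes, 19.0 min for 4 downward regulators of non-fermentable carbon genes and 143 min for 3 downward glycolytic genes. The median of the downward regulators was 7.89 min with each array centred on its median and 7.81 min with the first of repeat arrays only.

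**Figure D1:**
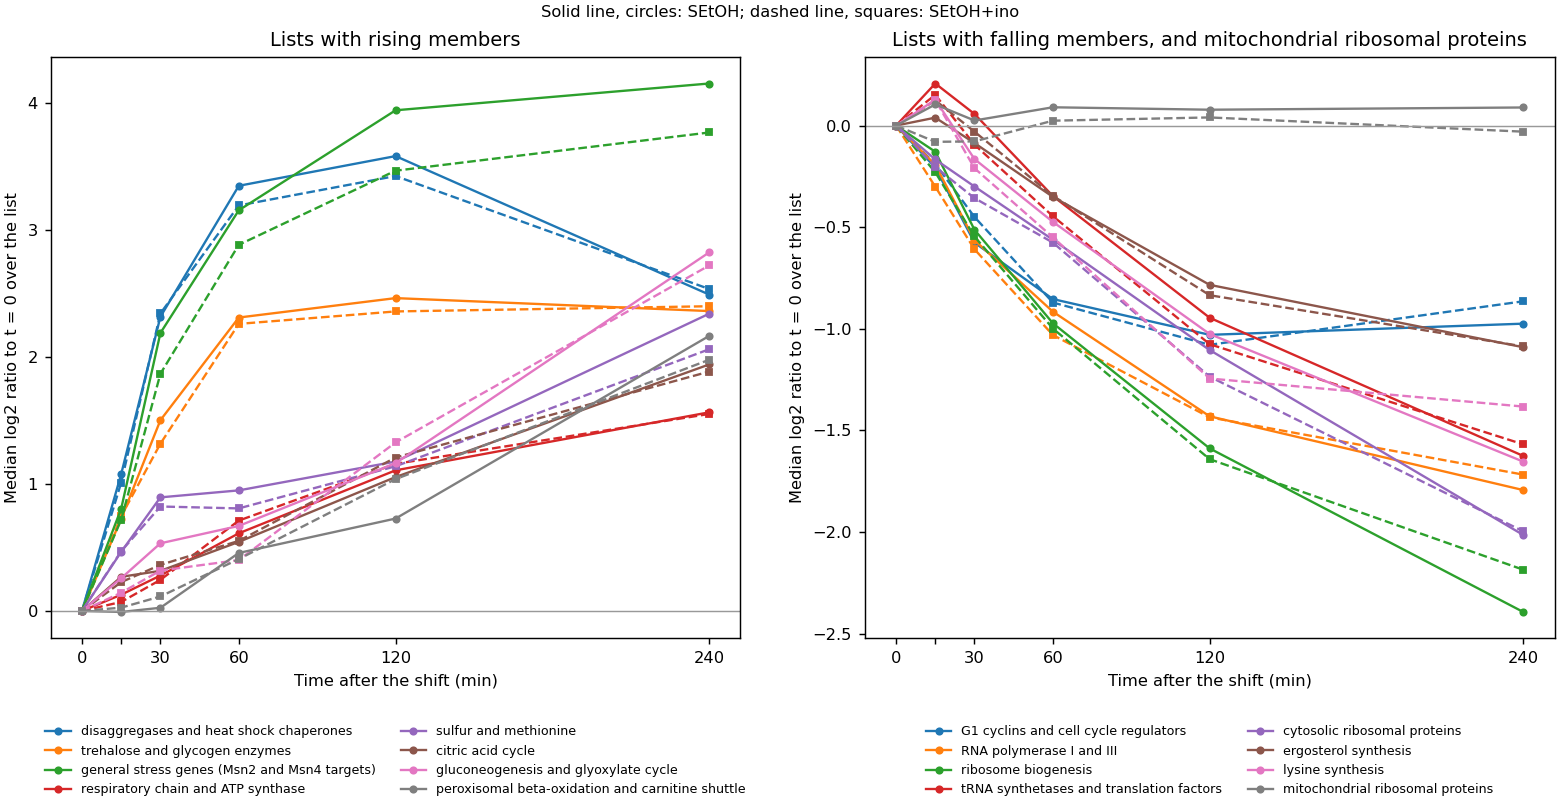
Median log2 ratio to t = 0 over the measured members of each gene list (vertical axis) against time after the shift in min (horizontal axis), with solid lines for SEtOH and dashed lines for SEtOH+ino. Chaperones and general stress genes had list medians of 2.25 and 2.06 at 30 min and beta-oxidation genes of 0.83 at 120 min and 2.15 at 240 min over the mean of the cultures, and mitochondrial ribosomal proteins stayed near 0.

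**Figure D2:**
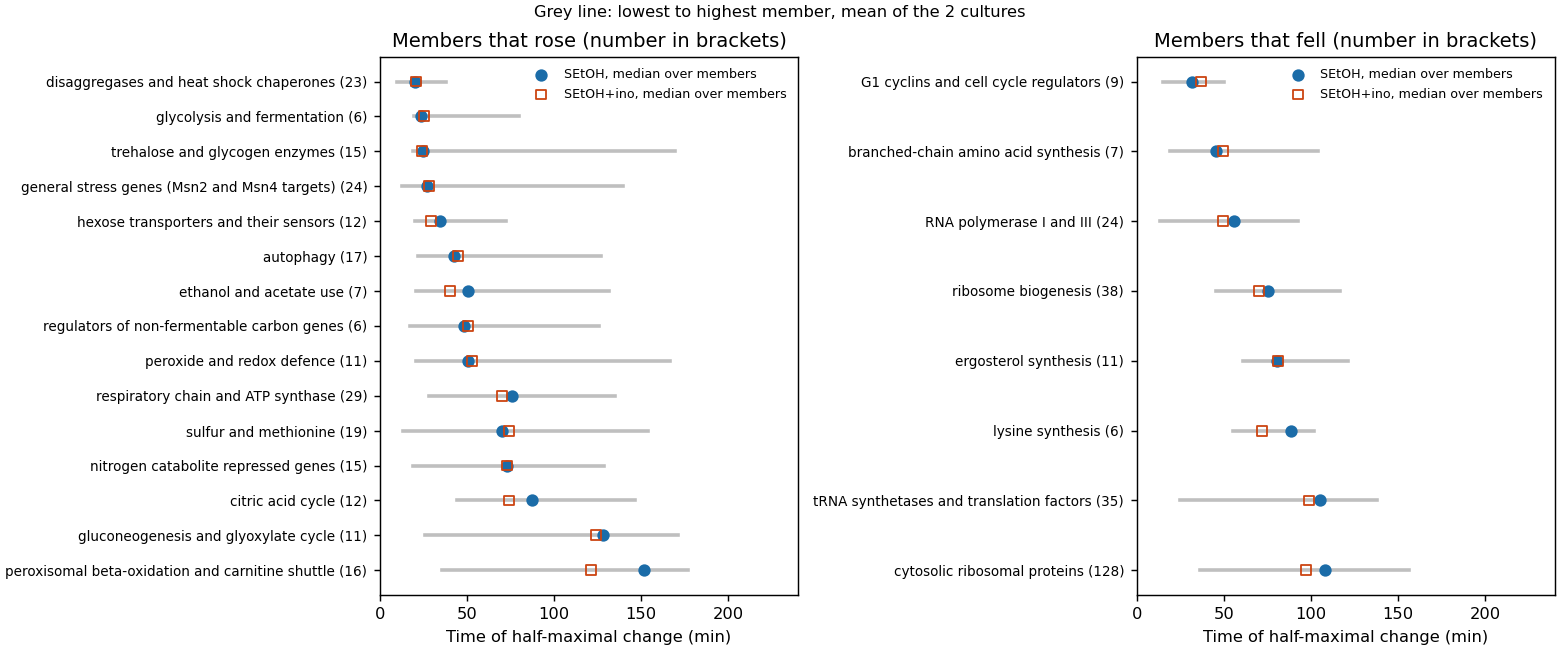
Median time of half-maximal change in min (horizontal axis) for the members of each list that reached at least 1 log2 unit, in SEtOH (filled circles) and SEtOH+ino (open squares), with a grey line from the lowest to the highest member and the number of members in brackets. Among lists with at least 5 such members, medians run from chaperones at about 20 min to beta-oxidation at 133 min among upward genes, and from G1 cyclins at 34.6 min to cytosolic ribosomal proteins at 103 min among downward genes.

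Protein folding genes had the shortest median half-time of the 15 upward lists. Of 26 chaperone and disaggregase genes tested, 25 were higher than t = 0 at 15 min (18.6% of all genes were), 13 of them at least 2-fold (against 1.57% of all genes higher at least 2-fold), and 21 were at least 2-fold higher at 30 min. From 15 to 30 min 24 of the 26 rose (8.86% of all genes did) and from 30 to 60 min 21 rose (12.3%). From 120 to 240 min 19 fell (18.5% of all genes did) and none rose. With the spread of 8 cultures these steps held 14, 5 and 14 of the members, beside 76 up, 28 up and 218 down among all 5325 genes. The median of the list was 0.99 log2 units at 15 min, 2.25 at 30 min, 3.25 at 60 min, 3.5 at 120 min and 2.52 at 240 min. Medians over all genes lay between -0.16 and 0.00.

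BTN2, which codes for a chaperone-like factor that sorts misfolded proteins, had the largest mean of all called genes at 15 min. Its 5 values, given here and below in the order 15, 30, 60, 120 and 240 min, were 5.27, 6.64, 6.64, 6.64 and 6.64 in SEtOH and 4.93, 6.46, 6.64, 6.64 and 6.59 in SEtOH+ino. Both cultures were above 30-fold at the first sample and at or next to the measuring limit from 30 min, with a mean at 15 min of 5.10 ± 0.08 (SE, adjusted p = 1.06e-09) and half-times of 9.5 and 10.1 min, which the limit may make too early. The small heat shock proteins Hsp42 and Hsp26 bind unfolding proteins. HSP42 had 4.54, 6.29, 6.64, 6.64 and 6.64 in SEtOH and 4.17, 5.62, 6.64, 6.33 and 6.31 in SEtOH+ino, and HSP26 had 3.30, 6.64, 6.64, 6.64 and 6.64 in SEtOH and 2.39, 6.41, 6.64, 6.64 and 6.29 in SEtOH+ino. HSP26 was lower than HSP42 at 15 min in both cultures. Its step from 15 to 30 min was 3.68 ± 0.24 (SE, adjusted p = 3.97e-05), a lowest value because SEtOH was at the limit at 30 min.

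The ATP-dependent machines followed the same rise and then turned back. HSP104, the disaggregase, had 2.85, 5.05, 6.64, 6.62 and 5.37 in SEtOH and 2.56, 4.72, 6.02, 5.90 and 5.18 in SEtOH+ino. The step from 120 to 240 min was -0.99 ± 0.26 (SE, adjusted p = 0.0164), down in both cultures, though not called with the spread of 8 cultures (adjusted p = 0.0876). HSP82, an Hsp90 gene, had 1.64, 3.23, 4.62, 4.74 and 3.39 in SEtOH and 1.12, 2.54, 4.13, 4.24 and 3.28 in SEtOH+ino, and SSA1, an Hsp70 gene, had 0.97, 2.36, 3.43, 3.34 and 1.99 in SEtOH and 0.88, 2.16, 3.09, 3.10 and 1.94 in SEtOH+ino. Between 120 and 240 min HSP82 fell by 1.15 ± 0.27 log2 units (SE, adjusted p = 0.00981) and SSA1 by 1.26 ± 0.13 (SE, adjusted p = 0.000174). Probes of HSP82 and SSA1 may also take signal from their near-identical partners HSC82 and SSA2.

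MIG1 and MIG2, which code for the repressors of genes that dextrose holds off, were the counterpart among the first downward genes. MIG1 had -1.48, -1.26, -0.88, -0.26 and -0.43 in SEtOH and -1.41, -1.18, -0.83, -0.38 and -0.48 in SEtOH+ino. Its lowest value was the first one in both cultures, with a mean at 15 min of -1.44 ± 0.06 (SE, adjusted p = 7.23e-07), and it then climbed, by 0.54 ± 0.08 (SE, adjusted p = 0.00138) from 60 to 120 min (adjusted p = 0.175 with the spread of 8 cultures). MIG2 had -1.70, -1.81, -1.73, -0.99 and -0.67 in SEtOH and -1.42, -1.44, -1.68, -1.42 and -0.85 in SEtOH+ino, also lowest within the first hour and nearer to 0 at 240 min in both. Other early downward genes did not come back. ILV5, an enzyme of isoleucine and valine synthesis, had -1.55, -2.35, -2.92, -3.27 and -3.43 in SEtOH and -1.39, -2.21, -2.92, -3.34 and -3.37 in SEtOH+ino, and AQR1, a plasma membrane transporter that exports amino acids and short-chain acids, had -1.96, -2.34, -3.04, -3.45 and -4.09 in SEtOH and -1.59, -2.06, -2.83, -3.44 and -3.81 in SEtOH+ino. Both were below t = 0 more than 2-fold at 15 min and close to or beyond 10-fold at 240 min in both cultures.

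Stress and reserve carbohydrate genes rose together with or just behind the chaperones. Of 25 general stress genes, known targets of Msn2 and Msn4, 10 were higher at least 2-fold at 15 min (1.57% of all genes), 21 at 30 min (5.4%), and 24 at 240 min (18.2%). From 15 to 30 min 19 of them rose (8.86% of all genes did), 6 with the spread of 8 cultures. Their median was 0.84 log2 units at 15 min, 2.06 at 30 min and 3.96 at 240 min. HSP12, a membrane-stabilising stress protein, had 0.60, 2.19, 5.10, 6.46 and 6.64 in SEtOH and 0.23, 2.09, 3.98, 6.01 and 5.79 in SEtOH+ino. It was below the list median at 15 min in both cultures and rose in the step from 30 to 60 min by 2.40 ± 0.36 (SE, adjusted p = 0.00314). Of 15 trehalose and glycogen enzymes, 4, 10, 11, 14 and 15 were higher at least 2-fold at the 5 times (1.57%, 5.4%, 10.1%, 15.1% and 18.2% of all genes were).

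Genes for both making and breaking down glycogen were among these. GPH1, glycogen phosphorylase, had 1.37, 4.21, 5.18, 5.02 and 4.36 in SEtOH and 1.15, 4.28, 5.06, 5.53 and 4.27 in SEtOH+ino. It went from under 3-fold to over 15-fold between 15 and 30 min in both cultures, a step of 2.99 ± 0.15 (SE, adjusted p = 2.22e-05). GDB1, the glycogen debranching enzyme, had 0.28, 1.25, 2.92, 4.21 and 4.13 in SEtOH and 0.24, 1.06, 3.31, 3.81 and 4.56 in SEtOH+ino, a later course with a step from 30 to 60 min of 1.96 ± 0.18 (SE, adjusted p = 0.000651). GSY2, the main glycogen synthase, had 1.05, 2.39, 3.12, 3.49 and 3.58 in SEtOH and 0.99, 2.28, 3.04, 3.35 and 3.53 in SEtOH+ino, and GLC3, the branching enzyme, had 2.18, 3.88, 4.70, 4.91 and 4.88 in SEtOH and 1.90, 3.23, 4.48, 4.38 and 4.70 in SEtOH+ino. The synthesis enzymes and GDB1 were at or near their largest values at 240 min, whereas GPH1 was lower at 240 than at 120 min in both cultures.

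Hexose transporter genes did not move as 1 group. Of 19, 1, 7, 7, 13 and 9 were higher at least 2-fold at the 5 times (1.57%, 5.4%, 10.1%, 15.1% and 18.2% of all genes were). HXT6 codes for a high-affinity transporter and is nearly identical in sequence to HXT7, so its probe may not tell them apart. HXT6 had 1.20, 3.64, 5.30, 5.56 and 4.99 in SEtOH and 1.33, 3.73, 4.56, 5.26 and 4.61 in SEtOH+ino, with a step from 15 to 30 min of 2.42 ± 0.22 (SE, adjusted p = 0.000228), and stayed above 4.5 from 60 min in both cultures. HXT2, another transporter induced when dextrose is scarce, had 0.50, 1.50, 1.90, 1.48 and -0.35 in SEtOH and 0.71, 1.48, 1.76, 1.20 and -0.26 in SEtOH+ino. It was highest at 60 min and below t = 0 at 240 min in both cultures, a last step of -1.65 ± 0.12 (SE, adjusted p = 3.03e-05). HXT5, which is known for its induction at slow growth, went on upward to 6.05 in SEtOH and 4.46 in SEtOH+ino at 240 min. HXT1, the low-affinity transporter made in high dextrose, was -1.28 in SEtOH and -0.12 in SEtOH+ino at 240 min, so the cultures did not match there.

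Ordered by half-time, the activators of non-fermentable carbon genes came as HAP4, ADR1, CAT8 and SIP4. HAP4, the limiting subunit of the activator of respiratory genes, had 1.04, 2.08, 2.47, 1.88 and 1.81 in SEtOH and 1.19, 2.18, 2.61, 2.02 and 1.93 in SEtOH+ino. It was already more than 2-fold up at 15 min in both cultures, with a mean of 1.12 ± 0.07 (SE, adjusted p = 6.14e-06), was highest at 60 min and had half-times of 17.8 and 16.7 min. ADR1, an activator of ethanol oxidation and peroxisomal genes, had 0.07, 0.55, 1.35, 1.22 and 1.15 in SEtOH and 0.13, 0.58, 1.41, 1.46 and 1.24 in SEtOH+ino. It was near 0 at 15 min and reached its plateau at 60 min, with a step from 30 to 60 min of 0.82 ± 0.10 (SE, adjusted p = 0.00151) and half-times of 34.7 and 35.5 min. That step was not called with the spread of 8 cultures (adjusted p = 0.202). CAT8, an activator of gluconeogenic genes, had 0.09, 0.68, 1.29, 1.06 and 2.05 in SEtOH and -0.07, 0.40, 1.10, 2.01 and 1.43 in SEtOH+ino. SEtOH was the lower culture at 120 min and the higher one at 240 min, none of its steps passed the test, and its mean at 240 min was 1.74 ± 0.20 (SE, adjusted p = 1.96e-05). SIP4, a related activator that Cat8 itself is known to switch on, had 0.17, 0.22, 0.53, 1.27 and 3.58 in SEtOH and 0.23, 0.37, 0.72, 1.91 and 3.22 in SEtOH+ino, with half-times of 147 and 105 min and a last step of 1.81 ± 0.19 (SE, adjusted p = 0.000186). Over the whole list of 22 regulators, 7 were higher and 2 lower at least 2-fold at 240 min, with a list median of 0.21. Of all genes 18.2% were higher and 20.4% lower at least 2-fold then. In the step from 15 to 30 min HAP4 rose by 1.01 ± 0.10 (SE, adjusted p = 0.000295) and BTN2, whose limit makes this a lowest value, by 1.45 ± 0.12 (SE, adjusted p = 0.000111). Both steps changed sign when all arrays were forced to 1 distribution (-0.16 and -0.19), an alternative that removes the widening of the response with time.

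**Figure D3:**
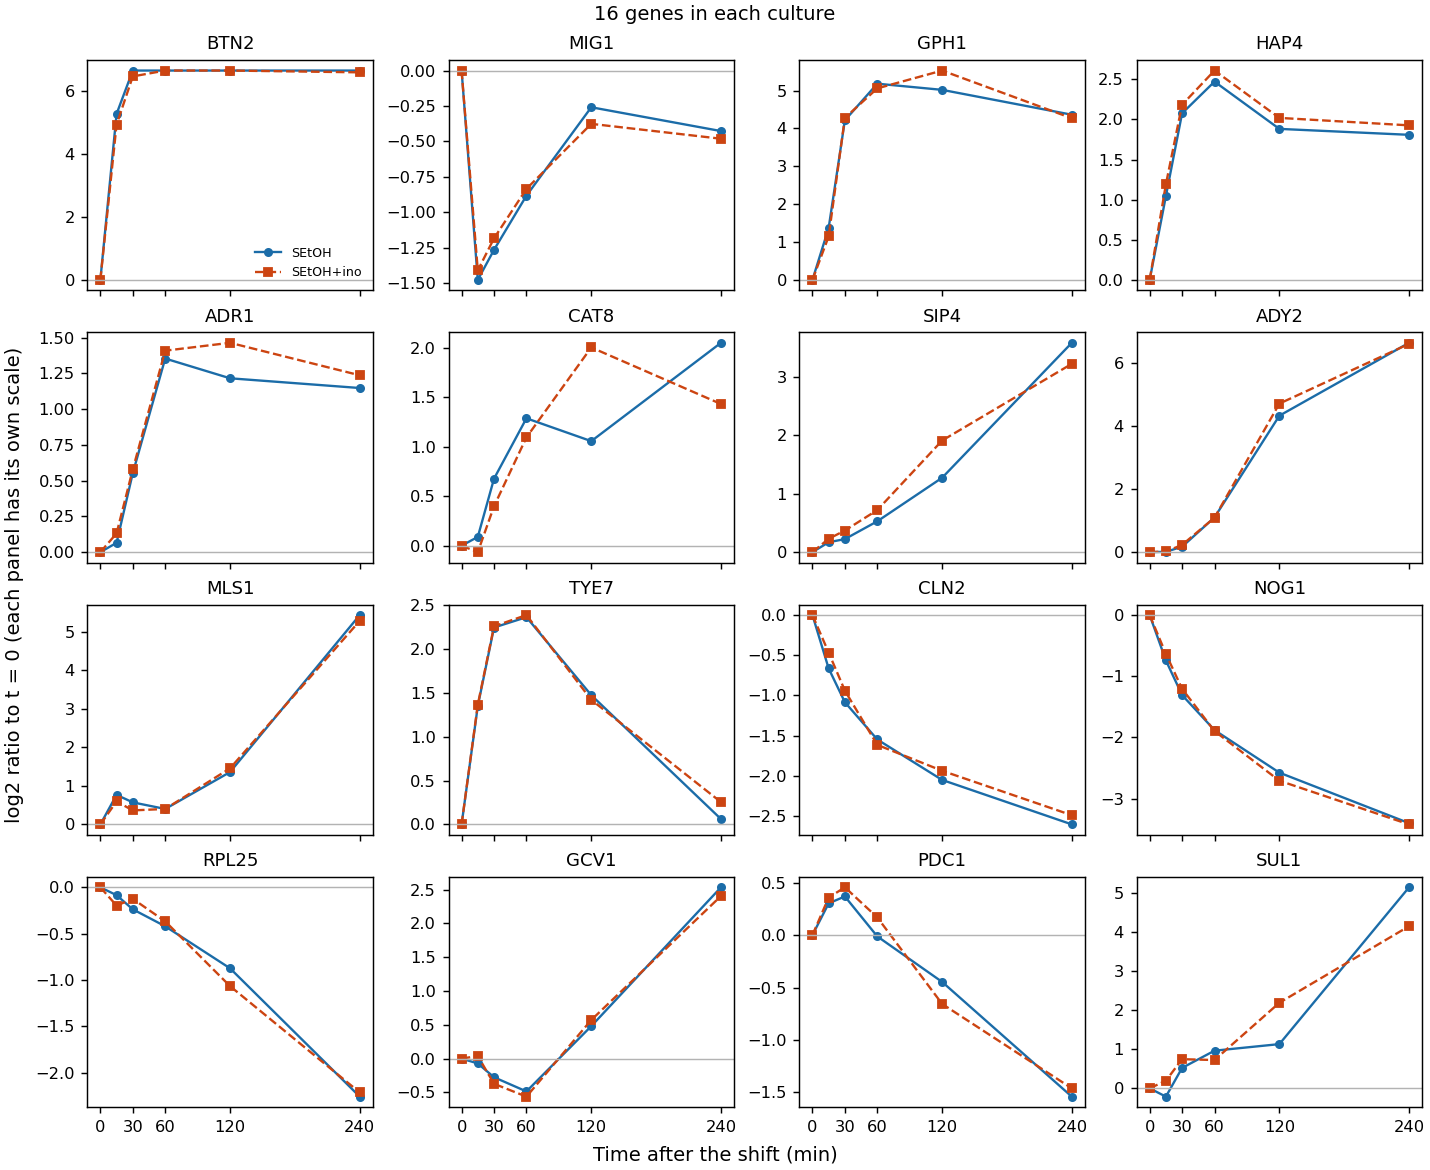
Log2 ratio to t = 0 (vertical axis, a scale of its own in each panel) of 16 genes against time after the shift in min, in SEtOH (blue circles, solid) and SEtOH+ino (red squares, dashed). Panels run from the earliest movers (BTN2 and MIG1) through HAP4 and ADR1 to genes that moved mainly after 60 or 120 min (ADY2, MLS1 and GCV1), with downward genes and genes that turned back below.

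Respiratory genes rose slowly and steadily. Of 36 genes for the respiratory chain and ATP synthase, 0, 2, 8, 20 and 30 were higher at least 2-fold at the 5 times. Of all genes 1.57%, 5.4%, 10.1%, 15.1% and 18.2% were. The list median was 0.09, 0.25, 0.67 and 1.58 log2 units at 15, 30, 60 and 240 min. In the 4 steps 4, 20, 25 and 23 rose, against 8.86%, 12.3%, 14.1% and 16.6% of all genes, so the first count was near that share. The spread of 8 cultures kept 1, 1, 1 and 7 of these, beside 76, 28, 62 and 243 upward calls among all 5325 genes. SDH1, the flavoprotein subunit of succinate dehydrogenase, had 0.35, 1.13, 1.83, 1.95 and 3.14 in SEtOH and 0.30, 1.15, 1.90, 2.25 and 2.96 in SEtOH+ino, each value above the one before it in both cultures, and a mean at 240 min of 3.05 ± 0.08 (SE, adjusted p = 5.94e-10). CYB2, a cytochrome that oxidises lactate, had 0.01, 0.38, 1.16, 2.28 and 4.05 in SEtOH and 0.09, 0.28, 0.95, 1.84 and 3.35 in SEtOH+ino and a mean at 240 min of 3.70 ± 0.15 (SE, adjusted p = 7.82e-09). CYC1, which codes for the main cytochrome c, went against its list, with 0.10, -0.15, -0.52, -0.45 and -0.80 in SEtOH and -0.10, -0.29, -0.30, -0.70 and -0.58 in SEtOH+ino and a mean at 240 min of -0.69 ± 0.09 (SE, adjusted p = 5.05e-05). CYC1 was named after its values were seen.

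Moving members of the citric acid cycle list had a longer median half-time than those of the respiratory list, 84.8 against 70.5 min. Its list medians were not lower at first, with 0.23 and 0.34 log2 units at 15 and 30 min against 0.09 and 0.25. Of its 16 genes, 0, 3, 5, 9 and 12 were higher at least 2-fold at the 5 times. From 120 to 240 min 14 rose (16.6% of all genes did), 8 of them with the spread of 8 cultures. CIT3, a mitochondrial citrate and methylcitrate synthase, had -0.14, 0.19, 0.48, 1.59 and 4.71 in SEtOH and -0.03, 0.07, 0.43, 1.50 and 3.95 in SEtOH+ino, with a last step of 2.78 ± 0.20 (SE, adjusted p = 3.03e-05). ACO1, aconitase, was the only member lower at least 2-fold at 240 min. Its values, looked at for that reason, were -0.32, -0.86, -1.26, -1.50 and -1.10 in SEtOH and -0.14, -0.77, -1.45, -1.79 and -1.26 in SEtOH+ino, so both cultures were below 0 at every time. Mitochondrial ribosomal proteins did not follow the respiratory genes: the median over 65 genes lay between -0.04 and 0.06 at the 5 times. That of all genes went down to -0.15 at 60 min, -0.16 at 120 min and -0.11 at 240 min. At 240 min 2 were higher and none lower at least 2-fold. Smaller changes went both ways, with 19 called higher and 17 lower at 240 min with the spread of 8 cultures (79.4% of all genes were called).

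Genes that feed ethanol and acetate into metabolism entered at different times. ALD4, the mitochondrial aldehyde dehydrogenase that makes acetate, had 0.80, 1.86, 3.17, 4.08 and 4.81 in SEtOH and 0.85, 2.03, 3.16, 4.06 and 4.69 in SEtOH+ino, already near 2 log2 units at 30 min in both. ACS1, the acetyl-CoA synthetase used without dextrose, had 0.05, 0.85, 1.77, 2.45 and 6.48 in SEtOH and 0.07, 0.86, 1.60, 3.04 and 6.05 in SEtOH+ino. Every value was above the one before it in both cultures, the last step was 3.52 ± 0.19 (SE, adjusted p = 5.45e-06), and both cultures were above 60-fold at 240 min. ADH2, the alcohol dehydrogenase that oxidises ethanol, had 0.25, 0.49, 0.68, 0.61 and 1.25 in SEtOH and 0.45, 0.57, 0.73, 0.81 and 0.82 in SEtOH+ino, a mean at 240 min of 1.04 ± 0.10 (SE, adjusted p = 4.65e-06). The ADH2 probe may take signal from the abundant related gene ADH1, whose part in that value was not tested.

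The organic acid transporter genes ADY2, JEN1 and SFC1 rose mainly after 60 min. ADY2, a plasma membrane acetate transporter, had 0.01, 0.17, 1.10, 4.33 and 6.64 in SEtOH and 0.02, 0.23, 1.09, 4.71 and 6.61 in SEtOH+ino. It was within 0.25 of 0 up to 30 min, rose by 3.42 ± 0.12 (SE, adjusted p = 9.83e-07) from 60 to 120 min, the largest of all called genes in that interval, and was at or next to the limit at 240 min. JEN1, the lactate and pyruvate permease, had -0.06, 0.30, 1.09, 3.73 and 5.83 in SEtOH and -0.03, 0.24, 1.19, 3.15 and 5.71 in SEtOH+ino, with the same timing in both cultures and 2.30 ± 0.16 (SE, adjusted p = 8.37e-05) from 60 to 120 min. SFC1, a mitochondrial succinate and fumarate carrier, had 0.29, 0.55, 0.72, 2.83 and 6.12 in SEtOH and 0.14, 0.13, 0.76, 2.61 and 5.69 in SEtOH+ino, with its largest step, 3.19 ± 0.17 (SE, adjusted p = 5.3e-06), in the last interval.

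Gluconeogenesis and the glyoxylate cycle were among the late groups. Of 13 genes, 1 was higher at least 2-fold at 15 min and 1 at 30 min, 3 at 60 min, 8 at 120 min and 11 at 240 min (18.2% of all genes higher at least 2-fold), and 12 rose from 120 to 240 min, 8 of them with the spread of 8 cultures. MLS1, malate synthase of the glyoxylate cycle, had 0.77, 0.57, 0.40, 1.36 and 5.44 in SEtOH and 0.60, 0.36, 0.40, 1.46 and 5.29 in SEtOH+ino. After values of 0.36 to 0.77 up to 60 min in both cultures it made the largest step of all called genes from 120 to 240 min, 3.96 ± 0.10 (SE, adjusted p = 9.75e-08). ICL1, isocitrate lyase, had 0.28, 0.77, 1.12, 2.19 and 4.17 in SEtOH and 0.44, 0.77, 0.89, 1.79 and 3.72 in SEtOH+ino, which had already begun to climb by 120 min. PCK1, the phosphoenolpyruvate carboxykinase that starts gluconeogenesis, had 0.08, 0.25, 0.51, 0.80 and 3.75 in SEtOH and 0.04, 0.32, 0.35, 1.40 and 2.90 in SEtOH+ino. FBP1, its last specific enzyme, had 0.42, 0.53, 0.31, 0.87 and 2.43 in SEtOH and 0.30, 0.48, 0.34, 0.96 and 2.05 in SEtOH+ino. Both stayed within 1 log2 unit of t = 0 at 60 min in each culture, and the last steps were 2.23 ± 0.26 (SE, adjusted p = 0.000261) for PCK1 and 1.33 ± 0.12 (SE, adjusted p = 0.000104) for FBP1.

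Genes for peroxisomal beta-oxidation and the carnitine shuttle, which carries acetyl units into mitochondria, had an equally late course. Of 19, 0, 0, 3, 8 and 17 were higher at least 2-fold at the 5 times (1.57%, 5.4%, 10.1%, 15.1% and 18.2% of all genes were). In the last step 17 rose (16.6% of all genes did), 13 of them with the spread of 8 cultures. The carnitine acetyltransferase genes YAT2 and CAT2 already moved from 60 to 120 min, by 2.87 ± 0.14 (SE, adjusted p = 8.42e-06) and 2.16 ± 0.10 (SE, adjusted p = 7.1e-06), with half-times of 103 and 97.8 min for YAT2 and 113 and 113 min for CAT2. POT1, the thiolase of beta-oxidation, had -0.33, -0.29, 0.51, 2.24 and 5.62 in SEtOH and -0.06, -0.09, 0.55, 2.20 and 4.59 in SEtOH+ino. CTA1, peroxisomal catalase, had -0.21, -0.36, -0.09, 0.84 and 4.24 in SEtOH and -0.09, -0.16, -0.07, 0.64 and 3.94 in SEtOH+ino. CTA1 was at or below 0 to 60 min in both cultures and rose by 3.35 ± 0.12 (SE, adjusted p = 7.9e-07) in the last step. No fatty acid was named among the medium components in the labels.

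Most glycolytic genes were higher than t = 0 at 15 min and fell from 120 to 240 min. Of 20 genes for glycolysis and fermentation, 14 were higher than t = 0 and 1 lower at 15 min (18.6% of all genes were higher), of which the spread of 8 cultures kept 4 and 1. Of the 20, 8 were at least 2-fold higher at 120 min, and 16 fell from 120 to 240 min (18.5% of all genes fell), 10 of them with the spread of 8 cultures. TYE7, an activator of glycolytic genes, had 1.35, 2.24, 2.36, 1.47 and 0.06 in SEtOH and 1.36, 2.26, 2.39, 1.42 and 0.25 in SEtOH+ino. It was up more than 4-fold at 30 and 60 min in both cultures and back near t = 0 at 240 min, a last step of -1.29 ± 0.08 (SE, adjusted p = 2.06e-05). PGK1, phosphoglycerate kinase, had 0.55, 1.07, 1.31, 1.54 and 0.23 in SEtOH and 0.47, 0.77, 1.14, 1.31 and 0.20 in SEtOH+ino, with a last step of -1.21 ± 0.12 (SE, adjusted p = 0.00016). PDC1, the main pyruvate decarboxylase of fermentation, had 0.30, 0.37, -0.01, -0.45 and -1.54 in SEtOH and 0.36, 0.46, 0.17, -0.66 and -1.46 in SEtOH+ino. It crossed from above to below t = 0 in both cultures, with a mean at 240 min of -1.50 ± 0.07 (SE, adjusted p = 2.05e-08). TDH1, a glyceraldehyde-3-phosphate dehydrogenase made in slow growth, was the highest of the 3 at 240 min, with 2.13 in SEtOH and 1.88 in SEtOH+ino.

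Of the 8 downward lists with at least 5 moving members the G1 cyclins and cell cycle regulators had the shortest half-time. Of 18 genes, 0, 6, 7, 9 and 8 were lower at least 2-fold at the 5 times (0.238%, 1.61%, 6.31%, 17.2% and 20.4% of all genes were). CLN1, a G1 cyclin, had -0.96, -1.55, -1.82, -1.77 and -1.98 in SEtOH and -1.01, -1.50, -1.84, -1.99 and -1.91 in SEtOH+ino. It was down about 2-fold at 15 min, with a mean of -0.98 ± 0.06 (SE, adjusted p = 7.93e-06), and lay between -1.77 and -1.99 from 120 min. CLN2, its close relative, had -0.66, -1.08, -1.55, -2.05 and -2.60 in SEtOH and -0.47, -0.94, -1.61, -1.94 and -2.49 in SEtOH+ino, each value below the one before it, and a mean at 240 min of -2.55 ± 0.07 (SE, adjusted p = 8.4e-10).

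Genes of the machinery that makes ribosomes went down before those of the ribosomal proteins. Of 39 ribosome biogenesis genes, 0, 2, 18, 36 and 38 were lower at least 2-fold at the 5 times. Of all genes 0.238%, 1.61%, 6.31%, 17.2% and 20.4% were. In the 4 steps 21, 29, 35 and 33 fell, against 7.72%, 16.9%, 20.4% and 18.5% of all genes. The spread of 8 cultures kept 0, 0, 0 and 2 of these, beside 1, 6, 34 and 218 downward calls among all 5325 genes. NOG1, a GTPase of large-subunit assembly, had -0.74, -1.31, -1.88, -2.58 and -3.40 in SEtOH and -0.63, -1.21, -1.90, -2.71 and -3.42 in SEtOH+ino. NSR1, a nucleolar protein of pre-rRNA processing, had -0.69, -1.23, -1.76, -2.45 and -3.16 in SEtOH and -0.49, -1.0, -1.73, -2.46 and -2.97 in SEtOH+ino. Both were lower at each sample than at the one before in both cultures, with means at 240 min of -3.41 ± 0.06 (SE, adjusted p = 1.64e-10) and -3.07 ± 0.08 (SE, adjusted p = 5.94e-10). Of 32 RNA polymerase I and III genes, 2, 5, 15, 23 and 24 were lower at least 2-fold. Of 133 cytosolic ribosomal protein genes, only 5 were lower at least 2-fold at 60 min (6.31% of all genes), against 101 at 120 min and 129 at 240 min, when the list median was -2.0. In the 4 steps 2, 45, 121 and 126 of them fell, of which the spread of 8 cultures kept 0, 0, 1 and 71. RPL25, a large-subunit protein gene, had -0.09, -0.24, -0.42, -0.87 and -2.26 in SEtOH and -0.20, -0.12, -0.37, -1.06 and -2.21 in SEtOH+ino, with a last step of -1.26 ± 0.09 (SE, adjusted p = 3.85e-05). Ribosomal protein genes that exist as near-identical pairs may share signal. The tRNA synthetases and translation factors had a similar course, with 0, 0, 1, 22 and 36 of 41 lower at least 2-fold at the 5 times.

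With amino acids absent from the new medium, genes of amino acid synthesis moved in different directions. Lysine synthesis had 6 of 9 genes and branched-chain synthesis 7 of 13 lower at least 2-fold at 240 min (20.4% of all genes were). Beside these 1 and 2 were higher at least 2-fold (18.2% of all genes were). LYS12, homoisocitrate dehydrogenase of the lysine pathway, had -0.16, -0.51, -0.96, -1.70 and -2.51 in SEtOH and -0.29, -0.67, -1.09, -1.98 and -2.62 in SEtOH+ino, each value below the one before it, and a mean at 240 min of -2.56 ± 0.08 (SE, adjusted p = 1.65e-09). The branched-chain aminotransferases parted: BAT1, the mitochondrial one, had -0.08, -0.40, -0.93, -1.76 and -2.31 in SEtOH and -0.16, -0.49, -0.97, -1.78 and -2.34 in SEtOH+ino, whereas BAT2, the cytosolic one, had 0.19, 0.32, 1.09, 2.42 and 3.84 in SEtOH and 0.01, 0.17, 0.77, 2.18 and 3.41 in SEtOH+ino. The courses separated from 60 min on in both cultures, and BAT2 rose by 1.37 ± 0.16 (SE, adjusted p = 0.000617) from 60 to 120 min. ARG3, ornithine carbamoyltransferase of arginine synthesis, had -0.13, -0.38, -0.49, -0.28 and 1.49 in SEtOH and 0.04, -0.26, -0.39, -0.26 and 1.62 in SEtOH+ino. It was at or below t = 0 through 120 min apart from 0.04 in SEtOH+ino at 15 min and rose by 1.82 ± 0.09 (SE, adjusted p = 4.46e-06) in the last step.

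Sulfur and methionine genes were spread over the whole course. Of 26, 4, 10, 11, 16 and 19 were higher at least 2-fold at the 5 times (1.57%, 5.4%, 10.1%, 15.1% and 18.2% of all genes were). In the 4 steps 10, 1, 13 and 14 rose, against 8.86%, 12.3%, 14.1% and 16.6% of all genes. The spread of 8 cultures kept 0, 0, 0 and 9 of these. MET2, the homoserine acetyltransferase that starts methionine synthesis, had 1.50, 2.80, 3.18, 4.12 and 4.61 in SEtOH and 1.37, 2.27, 3.00, 3.65 and 4.35 in SEtOH+ino, with half-times of 24.3 and 28.4 min. MET6, methionine synthase, had 0.58, 0.65, 0.36, 0.61 and 1.75 in SEtOH and 0.51, 0.51, 0.24, 0.40 and 1.58 in SEtOH+ino, with most of its increase in the last interval in both cultures. SUL1, a sulfate permease, had -0.21, 0.52, 0.96, 1.13 and 5.14 in SEtOH and 0.19, 0.74, 0.72, 2.19 and 4.14 in SEtOH+ino. Its cultures were apart by about 1 log2 unit at 120 and 240 min, and its last step was 2.98 ± 0.37 (SE, adjusted p = 0.000353).

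Glycine and purine genes turned late as well. GCV1, a subunit of the glycine cleavage system that supplies one-carbon units, had -0.07, -0.28, -0.49, 0.48 and 2.53 in SEtOH and 0.04, -0.37, -0.56, 0.57 and 2.40 in SEtOH+ino. It dipped below t = 0 in both cultures at 30 and 60 min and rose by 1.94 ± 0.09 (SE, adjusted p = 1.67e-06) in the last step. SHM2, the cytosolic serine hydroxymethyltransferase, had 0.03, -0.22, -0.93, -0.75 and 1.17 in SEtOH and 0.09, -0.17, -0.78, -0.83 and 1.06 in SEtOH+ino. Its dip lasted through 120 min in both cultures, longer than that of GCV1, and its last step was 1.90 ± 0.09 (SE, adjusted p = 1.67e-06). Of 14 purine synthesis genes, 5 fell from 15 to 30 min (7.72% of all genes did) and 6 from 30 to 60 min (16.9%), none of them with the spread of 8 cultures. From 120 to 240 min 10 rose (16.6% of all genes did), 6 with the spread of 8 cultures. The strain carries a mutation in ADE2, a gene of this pathway.

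Nitrogen catabolite repressed genes, which are held off while a preferred nitrogen source is present, did not move as 1 group. Of 22, 2, 5, 9, 14 and 16 were higher at least 2-fold at the 5 times (1.57%, 5.4%, 10.1%, 15.1% and 18.2% of all genes were). PUT1, proline oxidase, had 1.23, 3.65, 5.81, 6.64 and 6.64 in SEtOH and 0.80, 3.48, 5.73, 6.48 and 6.64 in SEtOH+ino, an early rise with a step from 15 to 30 min of 2.55 ± 0.14 (SE, adjusted p = 2.22e-05). AGP1, a broad amino acid permease, had 1.49, 3.22, 4.00, 3.29 and 3.47 in SEtOH and 1.52, 3.35, 3.61, 3.85 and 3.25 in SEtOH+ino, with 1.78 ± 0.18 (SE, adjusted p = 0.000431) in the same step. GAP1, the general amino acid permease, had -0.21, -0.14, 0.06, 1.95 and 3.23 in SEtOH and -0.05, -0.12, 0.05, 1.80 and 3.24 in SEtOH+ino. GAP1 lay within 0.21 of t = 0 up to 60 min in both cultures and then rose by 1.83 ± 0.09 (SE, adjusted p = 7.1e-06) from 60 to 120 min. The ammonium permease genes parted in the same way, with MEP1 at 0.93, 2.26, 2.48, 1.89 and 1.36 in SEtOH and 0.78, 2.10, 2.30, 1.81 and 1.50 in SEtOH+ino and MEP2 at -0.67, -0.74, -0.40, 1.01 and 2.30 in SEtOH and -0.26, -0.48, -0.31, 1.09 and 2.16 in SEtOH+ino.

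A minority of genes came back. Of 93 upward and 33 downward genes with their largest mean by 60 min, 17 and 13 were at less than 50% of it at 240 min. MIG1, MIG2, HXT2 and TYE7, given above, were among them. ECL1, a gene known for extending chronological lifespan when in excess, had 1.50, 2.82, 2.92, 1.38 and 0.82 in SEtOH and 1.73, 3.05, 3.09, 1.62 and 0.71 in SEtOH+ino and fell by 1.51 ± 0.13 log2 units (SE, adjusted p = 0.000258) from 60 to 120 min. RPN4, the activator of proteasome genes, had 0.58, 1.68, 2.35, 2.27 and 1.91 in SEtOH and 0.60, 1.58, 2.33, 2.06 and 1.94 in SEtOH+ino and kept most of its rise. It was the only member of its list of 32 with the proteasome subunits that was higher at least 2-fold at any time. INO1, the inositol-3-phosphate synthase whose gene is held off by inositol, had 0.24, 0.18, 0.47, 0.85 and 1.59 in SEtOH and 0.14, 0.42, 0.52, 1.21 and 1.47 in SEtOH+ino. Its mean at 240 min was 1.53 ± 0.09 (SE, adjusted p = 1.06e-07). The culture with inositol was the lower one at 15 and 240 min and the higher one between, and with 1 culture of each kind that difference has no test.

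The course was then set against 3 other pairs of cultures, each pair also made of 1 culture without and 1 with inositol, in 1 model of 40 values over 5325 genes. The question was which movements depend on the ethanol and which on the missing amino acids. All pairs were compared with t = 0 cells of the same kind, so differences between pairs are free of a fixed dye effect of a gene.

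Against ethanol with amino acids (SEtOH+aa and SEtOH+aa+ino) limma called 0 genes at 15 min (0.0%), 178 at an unadjusted p under 0.05, and 226 with all arrays forced to 1 distribution. It called 6 at 30 min (0.113%), 22 at 60 min (0.413%) and 193 at 120 min (3.62%). At 240 min 286 genes were called (5.37%), 108 higher (2.03%) and 178 lower (3.34%), or 130 higher of 236 with each array centred on its median. The change from 15 to 240 min differed for 56 genes (1.05%), 31 upward and 25 downward, or 42 upward of 62 with each array centred. Without the SEtOH culture 71 and 10 genes were called at 240 min and for the change, without SEtOH+ino 97 and 16, without SEtOH+aa+ino 62 and 21, and without Sgal or Sgal+ino 105 each for the change, so these counts hang on single cultures. Sulfur genes lay on the higher side, with 25 of 25 called higher at 240 min, among 108 genes in all, and a median difference of 2.67 log2 units. That difference was known from earlier results on the same arrays. MET6 was 1.75 and 1.58 without and -1.57 and -2.05 with amino acids at 240 min, groups that did not overlap, a difference of 3.48 ± 0.24 (SE, adjusted p = 5.06e-10).

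Genes on the lower side included ARO10, LHS1 and MCD4, which were above t = 0 in both cultures with amino acids at 240 min. Only ARO10 was more than 2-fold above it in both, while LHS1 and MCD4 were so in SEtOH+aa+ino alone. ARO10, a decarboxylase of aromatic amino acid breakdown, was -0.17 and -0.15 at 240 min against 4.94 and 2.37 with amino acids, a difference of -3.81 ± 0.52 (SE, adjusted p = 2.01e-05). LHS1, a chaperone of the endoplasmic reticulum, was -1.08 and -0.91 against 0.53 and 1.64, a difference of -2.08 ± 0.21 (SE, adjusted p = 3.19e-07). MCD4, an enzyme of membrane anchor synthesis in the same compartment, was -1.95 and -1.82 against 0.13 and 2.09, a difference of -3.00 ± 0.36 (SE, adjusted p = 3.63e-06). In ARO10 and MCD4 the 2 cultures with amino acids stood about 2 log2 units or more apart. None of 16 citric acid cycle genes, 2 of 12 gluconeogenesis and glyoxylate genes and 4 of 19 beta-oxidation genes were called at 240 min, the called ones being lower without amino acids.

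Against galactose without amino acids (Sgal and Sgal+ino) the first sample again differed little, with 2 genes called at 15 min (0.0376%). These were CIN5, a stress-related transcription factor gene, and YLR108C, an open reading frame, with differences of -1.72 ± 0.22 (SE, adjusted p = 0.000227) and -0.99 ± 0.17 (SE, adjusted p = 0.01). Without SEtOH+ino none was called, without Sgal 9 and without SD or SD+ino 1 each. By 240 min 2090 genes differed (39.2%), 975 higher (18.3%) and 1115 lower (20.9%) in ethanol, or 893 without SEtOH and 1170 without SEtOH+ino. The change from 15 to 240 min differed for 731 (13.7%), or 139 without SEtOH, 235 without SEtOH+ino and 1417 without Sgal. Gluconeogenesis and glyoxylate genes were higher in ethanol at 240 min in 9 of 12 cases and lower in 1, and citric acid cycle genes in 12 of 16.

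ACS1 was 6.48 and 6.05 in ethanol and 1.91 and 1.01 in galactose at 240 min, a difference of 4.81 ± 0.27 (SE, adjusted p = 1.84e-12). MLS1 was 5.44 and 5.29 against 1.37 and 0.96, a difference of 4.20 ± 0.37 (SE, adjusted p = 5.48e-09). In both genes the ethanol cultures were far above the galactose cultures. On the other side GPX2, a glutathione peroxidase, was -1.46 and -1.29 in ethanol and 2.49 and 3.37 in galactose (-4.30 ± 0.27 (SE, adjusted p = 1.94e-11)). Of 25 peroxide and redox defence genes 15 were lower in ethanol than in galactose at 240 min and 2 higher.

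Against dextrose without amino acids (SD and SD+ino) the courses were apart from the start, with 3034 genes called at 15 min (57.0%), 3664 at 240 min (68.8%) and 3797 for the change (71.3%). The median of 131 cytosolic ribosomal proteins was -0.18 in SEtOH and -0.20 in SEtOH+ino at 15 min against -2.04 in SD and -1.95 in SD+ino, and at 240 min -2.01 and -2.0 against -0.03 and -0.14, so the order of the media was turned round. NOP58, a nucleolar protein of ribosome assembly, was -0.04 and 0.09 at 15 min against -5.13 and -4.96 in dextrose (5.07 ± 0.28 (SE, adjusted p = 3.48e-13)), and -2.34 and -2.09 against -0.15 and -0.19 at 240 min (-2.05 ± 0.28 (SE, adjusted p = 9.33e-07)).

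The median of 25 sulfur genes was 0.51 and 0.48 in ethanol at 15 min against 4.03 and 4.26 in dextrose, where it then declined to 1.78 and 1.50 while ethanol reached 2.47 and 2.09. GAP1 was -0.21 and -0.05 at 15 min in ethanol and 5.22 and 4.96 in dextrose (-5.22 ± 0.40 (SE, adjusted p = 6.15e-11)). Chaperones ran the other way. BTN2 was 5.27 and 4.93 in ethanol and -0.90 and -1.84 in dextrose at 15 min (6.47 ± 0.32 (SE, adjusted p = 1.04e-13)), and the cultures were at least 7.38 apart at 240 min, where SEtOH was at the limit. Of 26 chaperone genes 23 were higher in ethanol than in dextrose at 15 min and none lower (25.7% of all genes were higher). General stress genes did not share this with the chaperones. The median of 25 at 15 min was 0.8 in SEtOH and 0.7 in SEtOH+ino against 3.0 in SD and 3.3 in SD+ino. At 240 min it was 4.2 and 3.8 against 0.3 and 0.5.

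**Figure D4:**
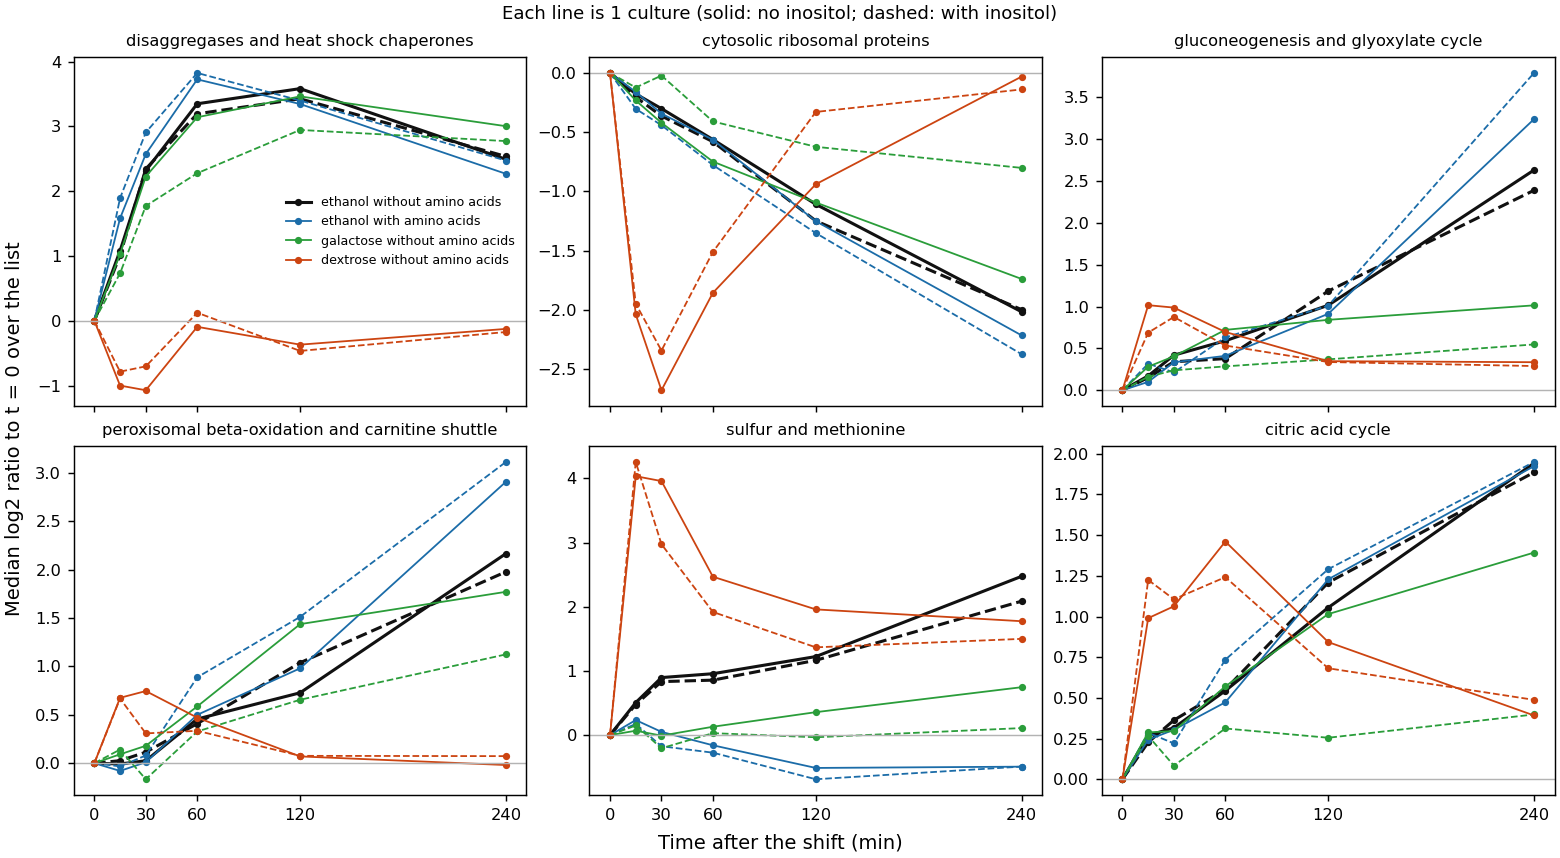
Median log2 ratio to t = 0 (vertical axis) of 6 gene lists against time after the shift in min, with 1 line per culture: ethanol without amino acids (black), ethanol with amino acids (blue), galactose without amino acids (green) and dextrose without amino acids (red), solid without and dashed with inositol. Chaperones lie above 0 in both ethanol pairs and in galactose, ribosomal proteins are near -0.2 in ethanol and near -2 in dextrose at 15 min, and sulfur genes stand at 2.47 and 2.09 in ethanol without amino acids at 240 min against -0.49 and -0.49 with them.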

How the data were processed

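Each array compared poly A+ mRNA of shifted cells with that of t = 0 cells on cDNA arrays, per the labels. The deposited values were read as log10 ratios of Cy5 over Cy3 from the values themselves, which stop at exactly 2 in either direction; the log base, direction, normalization and background correction of the authors are not given in the sources used here. They were multiplied by 3.3219 to give log2 values. Of 6256 probes 5568 carry 1 gene symbol, 688 none and 0 several, and 5563 identifiers matched the RefSeq table; probes of a gene were averaged, which left 5538 genes. In the 13 arrays 374 values (0.46%) were missing, 53 lay at the upper and 5 at the lower limit, array medians ran from -0.17 to 0.01 log2 and the SD across genes from 0.358 to 1.41. The number of arrays limits the precision: the median SE of a mean at 1 time was 0.074 log2 units. The limma model (3.58.1, R 4.3.3) had time as a factor and no culture term, with 5 residual and 4.2 prior degrees of freedom, over 5465 genes with a value at each time. Other media were compared in 1 limma model of 40 culture and time values with 20 residual degrees of freedom, whose spread over 8 cultures was also applied to the course itself. Each time course is 1 biological replicate, so samples of a culture belong together by design; the deviation of the cultures correlated between times at -0.03 to 0.60 (median 0.27, 10 pairs of times). Genes were named as the largest changes in each comparison, the largest members of each list and a set of genes known in this shift; CYC1, HSP82 and PDC1 fall outside that rule and were chosen after their values were seen. The members and gene lists were chosen with earlier results of these data known. Scripts were tested on simulated data.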

Additional observations from a re-analysis of the deposited data

Results flagged for a closer look

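The difference of the change from 15 to 240 min between ethanol without amino acids and another pair of cultures was tested itself, and passed for 56 genes against ethanol with amino acids, 731 against galactose without amino acids and 3797 against dextrose without amino acids. Groups of 2 cultures were not tested for a sample that stands apart.

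Below, 2 values joined by "to" are the log2 ratios at 15 and 240 min in 1 culture, first for SEtOH, then for SEtOH+ino and then for the other pair in the order without and with inositol. Against ethanol with amino acids, MET6 went from 0.58 to 1.75 and 0.51 to 1.58, and from 0.28 to -1.57 and 0.18 to -2.05 with amino acids, a difference in change of 3.16 ± 0.34 (SE, adjusted p = 5.24e-06). MHT1, a homocysteine methyltransferase gene, went from 1.00 to 3.45 and 0.65 to 2.94, and from 0.35 to -0.39 and 0.31 to -0.44, a difference of 3.12 ± 0.53 (SE, adjusted p = 0.00117). SUL1 went from -0.21 to 5.14 and 0.19 to 4.14, and from -0.28 to 1.00 and 0.04 to 1.90, a difference of 3.08 ± 0.53 (SE, adjusted p = 0.00129). The changes of these sulfur genes were above those with amino acids in both cultures. ARO10 went from -0.20 to -0.17 and -0.09 to -0.15, and from -0.20 to 4.94 and 0.08 to 2.37, a difference of -3.73 ± 0.73 (SE, adjusted p = 0.00586). MCD4 went from -0.57 to -1.95 and -0.24 to -1.82, and from -0.57 to 0.13 and -0.67 to 2.09, a difference of -3.21 ± 0.51 (SE, adjusted p = 0.000515). LHS1 differed in change by -2.17 ± 0.30 (SE, adjusted p = 0.000131). MHT1, ARO10 and MCD4 lost the call when either SEtOH or SEtOH+ino was left out, and SUL1 without SEtOH.

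Against galactose, ACS1 went from 0.36 to 1.91 in Sgal and 0.38 to 1.01 in Sgal+ino, far less than in ethanol, a difference in change of 5.12 ± 0.38 (SE, adjusted p = 3.38e-09). MLS1 went from 0.94 to 1.37 and 0.82 to 0.96 in galactose, a difference of 4.39 ± 0.53 (SE, adjusted p = 3.27e-06). CIN5 went from 0.71 to 0.83 and 0.35 to 0.75 in ethanol and from 2.45 to 5.22 and 2.04 to 5.66 in galactose, a difference of -2.94 ± 0.31 (SE, adjusted p = 8.13e-07). GPX2 went from 0.24 to -1.46 and 0.09 to -1.29 in ethanol and from 0.64 to 2.49 and 0.66 to 3.37 in galactose, a difference of -3.82 ± 0.38 (SE, adjusted p = 4.95e-07).

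Against dextrose, the putative permease gene SEO1 went from 0.11 to 4.05 and 0.14 to 3.78 in ethanol and from 6.64 to 0.65 and 5.97 to 0.32 in dextrose, a difference of 9.61 ± 0.48 (SE, adjusted p = 1.92e-13), a lowest value because SD was at the 100-fold limit at 15 min. ADY2 went from 0.78 to 0.24 and 0.32 to -0.18 in dextrose, a difference of 7.13 ± 0.38 (SE, adjusted p = 5.15e-13), a lowest value because SEtOH was at the limit at 240 min. GAP1 went from 5.22 to 5.46 and 4.96 to 5.50 in dextrose, high at both times, a difference of 2.98 ± 0.56 (SE, adjusted p = 4.25e-05). NOP58, given with both pairs' values in the report, differed in change by -7.11 ± 0.40 (SE, adjusted p = 5.15e-13). The changes of SEO1 and NOP58 were opposite in sign in ethanol and dextrose in all 4 cultures.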

How the results depend on the processing

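Setting all arrays to 1 distribution, which by construction removes the growth of the spread with time, gave 3719 calls at 15 min, 0 from 30 to 60 min (892 at an unadjusted p under 0.05 by limma), 68 from 60 to 120 min and 133 from 120 to 240 min. Against ethanol with amino acids it gave 226 calls at 15 min, 51 at 240 min and 7 for the change, and against galactose 183, 608 and 143. It turned the step from 15 to 30 min of HAP4 to -0.16 and of BTN2 to -0.19, and 16 of 117 results on single genes lost their call. The spread of 8 cultures gave 582 calls at 15 min, 2231 at 30 min and 77, 34, 96 and 461 in the 4 steps, and 7 of 74 single-gene results lost their call, HXT6 (adjusted p = 0.246), ADR1 (0.202) and HSP104 (0.0571) from 30 to 60 min, TYE7 (0.0748), MIG1 (0.175) and RPL25 (0.273) from 60 to 120 min and HSP104 (0.0876) from 120 to 240 min. With the culture as a replicate block the step from 15 to 30 min had 1637 calls, and 75 of 75 single-gene results and the other counts kept their call or stayed within 1.5 times. Calls that also needed at least 1 log2 unit numbered 99, 383, 896, 1766 and 2114 at the 5 times, 112, 69, 82 and 137 in the steps, 1866 from 15 to 240 min, 115 against ethanol with amino acids at 240 min, 1, 577 and 404 against galactose at 15 min, at 240 min and for the change, and 1448 and 1893 against dextrose at 15 and 240 min.

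With 1 culture left out, where the lone culture is assumed to vary like the other media, calls numbered 65 to 118, 703 to 892, 2272 to 2386, 3350 to 3431 and 3489 to 3646 at the 5 times, 5 to 10, 1 to 6, 4 to 8 and 20 to 61 in the steps and 2342 to 2597 from 15 to 240 min. At 15 min, at 240 min and for the change they ran from 0 to 4, 62 to 416 and 10 to 105 against ethanol with amino acids, 0 to 9, 893 to 2566 and 139 to 1417 against galactose, and 2291 to 3302, 2890 to 3842 and 3189 to 3971 against dextrose. Genes with a value on every array gave 36 calls for the change against ethanol with amino acids. Both that setting and the first of each set of repeat arrays gave 1 call against galactose at 15 min. The median half-time was 40.74 min (upward) and 72.13 min (downward) among genes reaching 2 log2 units, 43.52 and 77.82 min with centred arrays, and 45.16 min (upward) on a log scale of time. The order of the lists with at least 5 members (15 upward, 8 or fewer downward) had Spearman correlations of 0.893 to 1.0 with that reported. Apart from the named settings the cause of these differences was not tested.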
